A study of Mus musculus with 6 samples.

Results

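Chaperones of the endoplasmic reticulum (ER) and targets of the transcription factor XBP1 were examined in macrophages exposed to extracellular ADP. The set held 10 genes, Hspa5, Hsp90b1, Pdia4, Pdia6, Dnajb9, Xbp1, Herpud1, Sdf2l1, Edem1 and Calr, named as a list and found on the array by the gene name in the scanner files. They were read by 12 of the 55681 non-control probes, and all 10 genes were among the 19583 features compared. For each of the 10 genes the probe used was well above background on all 6 arrays.

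The macrophages were grown from C57BL/6 mouse bone marrow in medium conditioned by L929 cells, a source of the growth factor M-CSF, which both groups received. The group called BMDM_ADP was exposed to 100 µM ADP, a nucleotide that damaged and activated cells release, for 6 h, and BMDM_CON was the 6 h control. What the control cells received in place of ADP is not given in the sources used here. Each group had 3 samples, which the submitters describe as independent experiments with cells of different donors. A one-colour Agilent mouse array was used per sample. A culture may hold cells of several states, and in such bulk RNA fewer expressing cells and less RNA per cell cannot be told apart.

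The ER folds proteins that are to be secreted or placed in membranes. When unfolded protein builds up there, the sensors IRE1, PERK and ATF6 start the unfolded protein response: IRE1 splices Xbp1 mRNA so that it encodes an active transcription factor, ATF6 is cut to release another, and PERK slows translation while favouring that of ATF4. XBP1 and ATF6 raise the genes for chaperones and for ER-associated degradation, the route by which misfolded proteins are returned to the cytosol and destroyed. In macrophages, XBP1 is also known to act downstream of Toll-like receptors.

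The best known switch of these genes is the ER stress response element, or ERSE, which is CCAAT, then any 9 bases, then CCACG, and is bound by NF-Y together with ATF6 or XBP1. A shorter form, ERSE-II, is ATTGG, 1 base, then CCACG. In the 250 bases upstream of the RefSeq starts (build GRCm38.p6), searched on both strands, an ERSE stood in 37 of 32851 promoters (0.113%). It stood in 4 of the 10 genes, Hspa5, Hsp90b1, Pdia6 and Calr. ERSE-II stood in 10 promoters (0.0304%), and Herpud1 was the 1 gene of the 10 among them. The element TGAC followed directly by GTGG, a binding site described for XBP1, stood in 185 promoters (0.563%) and in none of the 10. Over all promoters 2 ERSE matches and 1 ERSE-II match overlapped another of these elements, and none of those shown here did. A match is a match of letters and not a measured binding site, and a missing match says only that these letters are not in this window. The stretches below show where the elements lie. Sequences were not used to choose the 10 genes, but the ERSE is a known switch of genes of this kind. Finding it in some of them is therefore not independent of the choice. Capitals mark the fixed bases of each element, and CGTGG and ATTGG are an ERSE read on the opposite strand. All are written 5′ to 3′ along the gene's own strand.
Hspa5 (chr2:34771995-34772073, plus strand): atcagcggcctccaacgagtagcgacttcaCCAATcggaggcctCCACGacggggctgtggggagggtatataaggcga
Hsp90b1 (chr10:86705523-86705666, minus strand): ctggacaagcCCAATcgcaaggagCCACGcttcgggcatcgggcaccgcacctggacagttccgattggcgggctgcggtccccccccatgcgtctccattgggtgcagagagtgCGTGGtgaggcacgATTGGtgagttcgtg
Pdia6 (chr12:17266461-17266539, plus strand): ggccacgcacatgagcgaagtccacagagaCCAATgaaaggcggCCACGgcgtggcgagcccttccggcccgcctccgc
Calr (chr8:84847045-84847123, minus strand): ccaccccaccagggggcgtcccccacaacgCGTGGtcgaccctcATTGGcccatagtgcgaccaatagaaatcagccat
Herpud1 (chr8:94386347-94386417, plus strand): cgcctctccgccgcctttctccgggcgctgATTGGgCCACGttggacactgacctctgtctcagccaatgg
In Hspa5 the element ended 47 bases upstream of the start, and in Herpud1 42 bases upstream. Hsp90b1 carried a pair of ERSE, 1 in each orientation.

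Controls 1 and 2 were hybridised with ADP 1 on one slide (slide 1), and ADP 2 and 3 with control 3 on another (slide 2). Of 59305 non-control spots, 50.3% to 51.9% per array exceeded background clearly, and none was saturated. All 8 macrophage markers looked at, among them Csf1r, Adgre1 and Lyz2, were well above background on all arrays. No measured B cell marker (4) or erythroid marker (3) was well above background on all 6 arrays. Ms4a1 and Klf1 were so on none, Cd79a on 5, Hba-a1 on 2 and Pax5 on 1. Summed B cell signals were 43.4 to 64.4 in controls and 38.2 to 55.4 with ADP, and summed erythroid signals 19.9 to 53.1 and 30.3 to 42.0. Of 3 T cell markers Cd3e was well above background on all arrays and Cd3d and Cd3g on none, with sums of 236 to 532 in controls and 202 to 568 with ADP. Of 3 mast cell markers Tpsb2 was so on all arrays and Cpa3 and Mcpt4 on none, with sums of 40.6 to 86.4 and 80.6 to 146. Plasma cells are rich in ER chaperones, and of their 5 measured markers Sdc1, Jchain and Prdm1 were well above background on all arrays, and Tnfrsf17 and Irf4 on none. Their summed signal was 4892 to 5954 in controls and 8900 to 12450 with ADP, of which Sdc1 gave 3870 to 4866 and 7739 to 11438. Jchain read 24.5 to 41.7 in controls and 31.2 to 72.2 with ADP, and Prdm1 822 to 1027 and 930 to 1086. All 5 fibroblast markers were well above background on all arrays, with summed signals of 5725 to 7329 in controls and 5893 to 7768 with ADP. Of 7 measured neutrophil markers 5 were, mostly through S100a8, with sums of 10279 to 12674 and 11891 to 17442. Of 5 dendritic cell markers 3 were, and the sums followed the slide through Siglech, at 16591 to 20327 on slide 1 and 76580 to 86399 on slide 2. Csf1r also followed it, at 126128 to 143062 and 272855 to 317234, as did Cd3e, at 194 to 246 and 472 to 559. Lyz2 and Cd68 did so too, at 129416 to 141643 and 237443 to 247995, and at 3278 to 3993 and 7217 to 7636. Fcgr1 read 7432 to 8328 on slide 1 and 14836 to 17600 on slide 2, and Itgam 11032 to 13945 and 16785 to 18711. The other macrophage markers, Adgre1, Cd14 and Mertk, overlapped between the slides. Macrophage sums were 443422 to 730147 in controls and 535515 to 881462 with ADP. All these marker signals are unscaled between arrays. The part of these cell types, and of the slide, in the values below was not tested beyond the slide-wise values given.

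The 10 genes showed no call with ADP. limma, fitted over all 19583 features, called 0 of the 10 at a Benjamini-Hochberg adjusted p under 0.05, where 0% of all features were called. At an unadjusted p under 0.05 there was 1, Herpud1, which was lower with ADP, as were 5.58% of all features at that level. Adding the slide block left 0 of the 10 after adjustment, and 0% of all features. Herpud1 was again the 1 gene of the 10 with an unadjusted p under 0.05, where 12.7% of all features were lower at that level. Intensity-trended and robust variances on top of the slide block called 9.31% of all features and still 0 of the 10.

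The differences were small, and their intervals lay inside a 2-fold change. A level is the log2 signal less that array's 75th percentile, and a difference is ADP less control in log2 units. The 10 differences ran from -0.34 for Herpud1 to 0.09 for Pdia4, with a median of -0.08, against 0.02 over all features. The median of the 10 was -0.02 without control 3 and -0.03 without ADP 1. Of the 10, 6 were below 0, and of all features 46.9% were. The median size of the difference, without its sign, was 0.09 for the 10 genes and 0.16 for all features. For 10 of 10 genes the 95% interval of the fit lay inside a 2-fold change in either direction, and for 9 of 10, all but Herpud1, inside a 1.5-fold change. A p that misses the threshold does not show equal levels, so the interval of each gene is given with it.

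**Figure D1:**
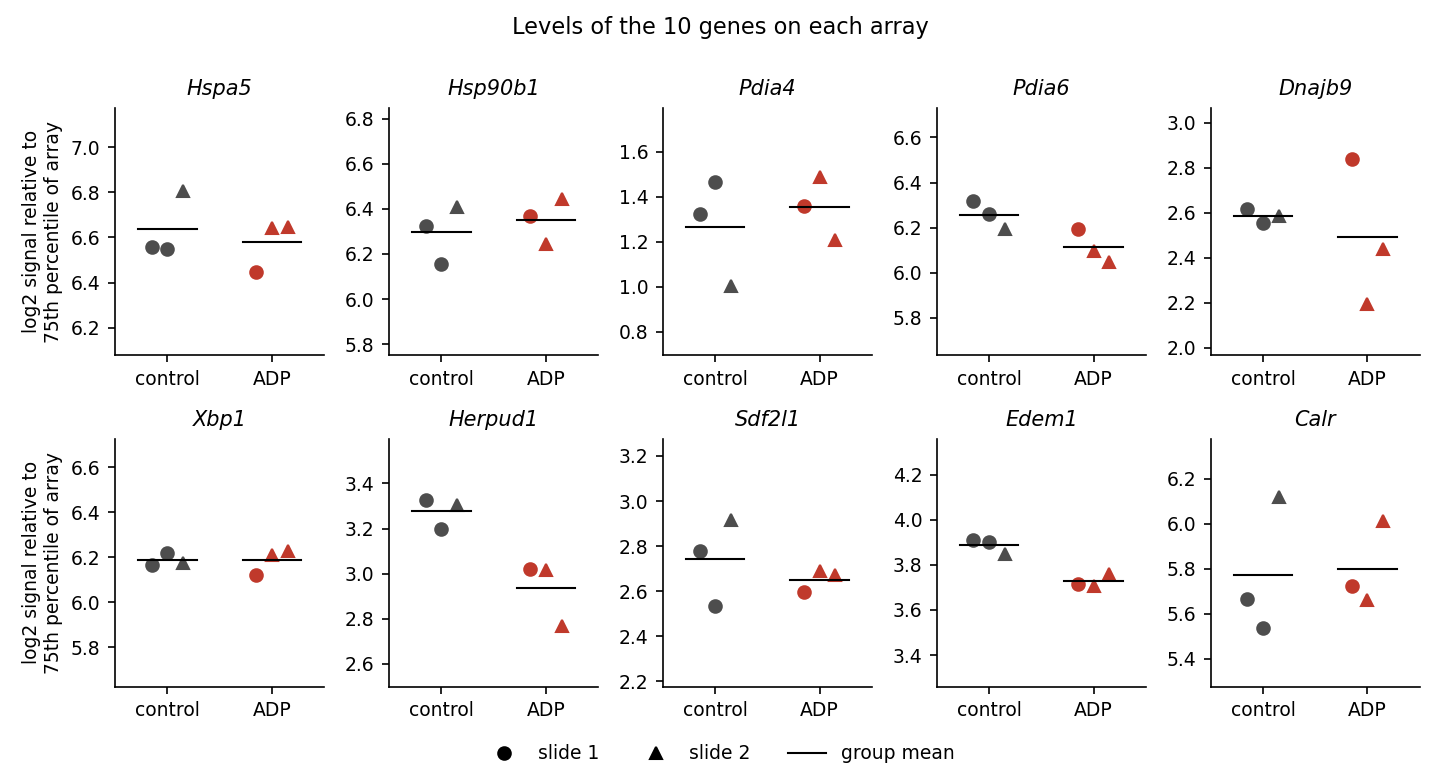
Level of each of the 10 genes on every array (vertical axis, log2 signal less the array's 75th percentile; each panel spans the same range of 1.1), by group, with circles for slide 1, triangles for slide 2 and a line for the group mean. Control and ADP arrays do not overlap for Herpud1 and Edem1 and overlap for the other 8.

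Among the chaperones that bind unfolded chains, Hspa5 encodes BiP, the ER's HSP70, which also holds the stress sensors inactive. The probe for it, at chromosome 2, 34631913 to 34631972 in mm9, read 6.56, 6.55 and 6.81 on control arrays 1 to 3 and 6.45, 6.64 and 6.65 on ADP arrays 1 to 3. The groups overlapped, and in each group the slide 2 arrays were the higher ones. The difference was -0.06 ± 0.12 (log2, SE, n = 3 arrays per group), with an interval from -0.36 to 0.24 (limma, adjusted p = 0.876). The slide block moved it to -0.13 ± 0.07 (adjusted p = 0.328). Each slide alone gave a value below 0, -0.11 on the first and -0.16 on the second. The slide 2 arrays stood 0.23 above those of slide 1 in that fit, a gap larger than the one between treatments. Without control 3 the difference was 0.03, and without ADP 1 it was 0.0079.

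Hsp90b1 encodes GRP94, the ER's HSP90, which folds Toll-like receptors and integrins. Its levels ran from 6.16 to 6.41 in controls and from 6.24 to 6.44 with ADP, and the ranges overlapped. The difference was 0.05 ± 0.12 (log2, SE), with an interval from -0.23 to 0.34, and it was 0.13 within slide 1 and -0.07 within slide 2. It was -0.02 without control 2.

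Calr encodes calreticulin, the calcium-binding lectin that holds newly made glycoproteins until they are folded. Control arrays read 5.66, 5.54 and 6.12, and ADP arrays read 5.73, 5.66 and 6.01. Control 3 and ADP 3, both on slide 2, were the highest arrays of their groups, while ADP 2, also on slide 2, was the lowest ADP array. The difference was 0.03 ± 0.19, the widest SE of the 10, with an interval from -0.42 to 0.47 (limma, adjusted p = 0.968). It was 0.13 within slide 1 and -0.28 within slide 2, and with the slide as a block it was -0.08 ± 0.15. The sign also turned with quantile normalization and median scaling, and without control 1, control 2 or ADP 3 (-0.03, -0.09 and -0.08). The fitted slide coefficient was 0.31, slide 2 above slide 1.

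The protein disulfide isomerases Pdia4 (ERp72) and Pdia6 (P5) make and rearrange disulfide bonds in the ER. Pdia6 read 6.32, 6.26 and 6.19 in controls and 6.19, 6.10 and 6.05 with ADP. The lowest control array and the highest ADP array lay at the same level to 2 decimals, with the ADP array the higher by a hair, so the groups just overlapped. The difference was -0.14 ± 0.10 (interval -0.39 to 0.10, limma adjusted p = 0.645), and it was -0.09 within slide 1 and -0.12 within slide 2. A second, dimmer Pdia6 probe differed by -0.13 ± 0.13. For Pdia4, controls ran from 1.00 to 1.47 and ADP arrays from 1.21 to 1.49. The lowest array was control 3. The difference was 0.09 ± 0.15 (interval -0.28 to 0.46), and it was -0.04 within slide 1 and 0.35 within slide 2. Without control 3 it was -0.04.

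Co-chaperones supply BiP with substrates or release them. Dnajb9 encodes ERdj4, a J-domain partner of BiP that is a classical XBP1 target. Controls read 2.62, 2.55 and 2.58, while ADP arrays read 2.84, 2.19 and 2.44, so the ADP arrays lay on both sides of a tight control group. The SD was 0.03 in controls and 0.33 with ADP (n = 3 each). The difference was -0.09 ± 0.17 (log2, SE; limma adjusted p = 0.860), with an interval from -0.51 to 0.32. It was 0.25 within slide 1 and -0.27 within slide 2, and without ADP 2 it was 0.06. A second, dimmer Dnajb9 probe differed by -0.08 ± 0.19, and its ADP arrays lay within the control range. Sdf2l1, which encodes a partner of ERdj co-chaperones, ran from 2.54 to 2.92 in controls and from 2.60 to 2.69 with ADP. All 3 ADP arrays lay inside the control range. The difference was -0.09 ± 0.13 (interval -0.40 to 0.22), with -0.06 and -0.24 within slides 1 and 2. Without control 3 it was -0.0061, and without control 2 it was -0.20.

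Xbp1 itself showed the smallest difference of the 10. Its probe (chromosome 11, 5425816 to 5425875, mm9) read 6.17, 6.22 and 6.17 in controls and 6.12, 6.21 and 6.23 with ADP. The 6 arrays lay close together in both groups, with SDs of 0.03 and 0.06. The difference was 0.0012 ± 0.10 (log2, SE, n = 3 arrays per group; limma adjusted p = 0.997), a 1.00-fold ratio with an interval from 0.853-fold to 1.17-fold. With the slide as a block it was -0.01 ± 0.08, and it was -0.07 and 0.04 within slides 1 and 2. The probe is 1 unbroken stretch of 60 bases, and its place relative to the segment that IRE1 removes was not analysed. The spliced and unspliced forms were therefore not told apart here.

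Herpud1 and Edem1 act in ER-associated degradation. They were the 2 genes of the 10 whose groups did not overlap once scaled, both lower with ADP. Of all features, 9.15% had groups that did not overlap in that direction. Herpud1 encodes HERP, a membrane protein of the ubiquitin ligase complex that removes misfolded proteins. Its probe (chromosome 8, 96919117 to 96919176, mm9) read signals of 3833, 3551 and 4508 in controls and 3052, 3685 and 3078 with ADP before scaling. Relative to the array, these were 3.33, 3.20 and 3.30 in controls and 3.02, 3.02 and 2.77 with ADP. Every ADP array lay below every control array once scaled, and ADP 3 was the lowest. The difference was -0.34 ± 0.12 (log2, SE), or 0.790-fold with an interval from 0.651-fold to 0.960-fold, at an unadjusted p of 0.0245 and an adjusted p of 0.320 (limma). The slide block gave -0.33 ± 0.11 (adjusted p = 0.152), and the slides taken singly gave -0.24 and -0.41. The difference was below 0 in 22 of 22 other settings, from -0.41 to -0.24, and the adjusted p under these settings was never below 0.0730. Edem1 encodes a mannosidase-like protein that picks out misfolded glycoproteins. Its probe (chromosome 6, 108808920 to 108808979, mm9) read 3.91, 3.90 and 3.85 in controls and 3.71, 3.71 and 3.76 with ADP. Before scaling its signals overlapped, at 5751, 5783 and 6567 in controls and 4928, 5941 and 6121 with ADP. The difference was -0.16 ± 0.09 (limma, adjusted p = 0.567), with an interval from -0.38 to 0.07. It was -0.19 within slide 1 and -0.11 within slide 2.

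**Figure D2:**
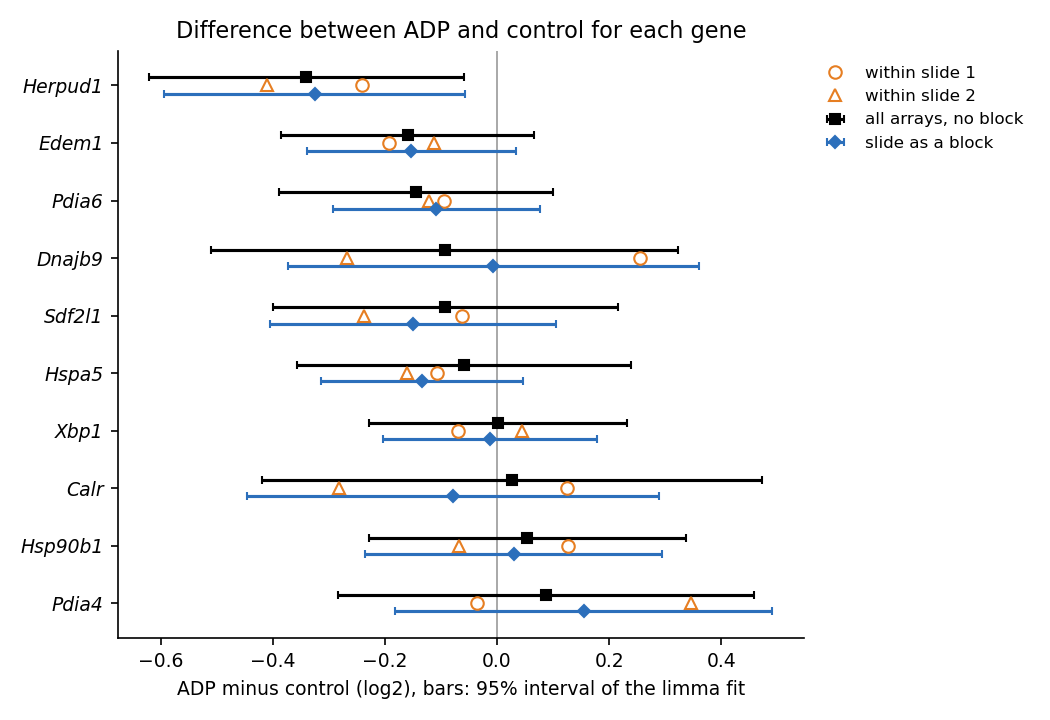
ADP minus control (log2) for each of the 10 genes from limma over all arrays (black squares) and with the slide as a block (blue diamonds), each with its 95% interval, and the differences within slide 1 (open circles) and slide 2 (open triangles). Only the intervals of Herpud1 leave out 0, and 5 of the 10 genes have signs that differ between the slides.

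Within both slides alike, 5 of the 10 genes were below 0 (Herpud1, Edem1, Pdia6, Hspa5 and Sdf2l1), 0 were above 0 in both, and the other 5 changed sign. The median of the 10 was -0.07 within slide 1 and -0.14 within slide 2, and over all features it was 0.03 and -0.02. In the slide-blocked fit the gap between the slides was larger than that between treatments for 8 of the 10 genes and for 59.1% of all features. Averaged over the 10 genes and set relative to the control mean, control arrays 1 to 3 read 0.0087, -0.05 and 0.04, and ADP arrays 1 to 3 read -0.05, -0.10 and -0.07. Control 2 and ADP 1 lay at the same level.

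The protein-coding genes most like the 10 were ranked by Pearson's r with the mean centred level of the 10 over the 6 arrays, among 5863 with an SD of at least 0.2. These were Fah (r = 0.995), Slc12a9 (0.986), Inpp1 (0.986), Bcat2 (0.982) and Ppp1r9b (0.981). They are a description over 6 arrays that share 2 slides, and r after centring each slide was 0.981 to 0.995. Their differences ran from -0.55 for Bcat2 to -0.32 for Inpp1, and none passed after adjustment (limma, smallest adjusted p = 0.311). The profile they were matched to was itself lower with ADP on average, so their sign follows from the choice.

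The other genes of the pathway were read as 6 lists, in which all 100 listed genes were measured. No gene of any list passed at an adjusted p under 0.05 in limma without the slide block, or with it under ordinary variances. With the block and trended, robust variances 9.31% of all features passed, and of the lists Dnajc3, Erp44, Erp29, Ube2j1 and Lman1. Of all features, 10.1% had groups that did not overlap with ADP higher and 9.15% with ADP lower. At an unadjusted p under 0.05 (limma), 6.78% of all features were higher. With the slide as a block, 11.2% were higher and 12.7% lower at that level. The blocked counts, higher and lower, were 2 and 1 of 20 other chaperones and folding enzymes, and 2 and 1 of 17 degradation genes. They were 0 and 2 of 13 sensors and factors, and 5 and 0 of 10 PERK and ATF4 targets. For import they were 0 and 1 of 24, and for ER-to-Golgi transport 3 and 1 of 16. Groups that did not overlap, ADP higher and ADP lower, numbered 1 and 1 among other chaperones and folding enzymes. They numbered 3 and 1 among degradation genes, 3 and 1 among sensors and factors, and 2 and 0 among PERK and ATF4 targets. For import the counts were 3 and 0, and for transport 6 and 1. Over all features the median was 0.02, and 0.0039 with the slide as a block.

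In the list of other chaperones and folding enzymes, 13 of 20 genes were above 0 and the median was 0.06. It was 0.03 with the slide block, 0.0092 without ADP 1 and 0.09 without ADP 2. One gene, Erp44, was higher at an unadjusted p under 0.05 and 0 were lower. Erp44, which keeps unfinished disulfide-linked proteins in the ER, read 0.45, 0.59 and 0.42 in controls and 0.79, 1.03 and 1.08 with ADP. Every ADP array lay above every control array. The difference was 0.48 ± 0.12 (log2, SE; limma adjusted p = 0.259), and it was 0.27 and 0.64 within slides 1 and 2. The J-domain protein gene Dnajc10 differed by 0.27 ± 0.14 and the prolyl isomerase gene Fkbp2 by 0.18 ± 0.12. The mean over the Dnajc10 probes differed by 0.23. With the slide as a block and trended, robust variances, limma called Erp44 and Dnajc3 higher and Erp29 lower (adjusted p = 0.0387, 0.0422 and 0.0216). Dnajc3 encodes the PERK inhibitor p58IPK. That fit called 9.31% of all features in either direction. Dnajc3 and Erp29 are named after their values were seen, and without the block they differed by 0.14 ± 0.22 and -0.20 ± 0.25.

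Of 17 genes of ER-associated degradation, 12 were above 0. Their median was 0.12, which the slide block lowered to 0.05, and it was 0.06, 0.07 and 0.04 without control 1, control 2 and ADP 3. One gene was higher at an unadjusted p under 0.05 and 0 were lower. Ube2j1, a ubiquitin-conjugating enzyme of the ER membrane, differed by 0.28 ± 0.11 (log2, SE; limma adjusted p = 0.372), with 0.25 and 0.41 within slides 1 and 2. The mean over its probes differed by 0.21. Its groups did not overlap. The slide-blocked limma fit with trended, robust variances called it higher (adjusted p = 0.0309), as it called 9.31% of all features in either direction. Its promoter was 1 of 6 among 82 pathway genes in the promoter table that held TGAC followed by GTGG. The others were Copb1 (0.05), Kdelr3 (0.18), Sec24d (-0.23), Txndc5 (-0.11) and Vcp (0.08), which differed in both directions. Any link of that element to these differences was not tested. Edem2, a relative of Edem1, differed by 0.22 ± 0.10. Derl3, a channel component whose promoter also held an ERSE, differed by -0.52 ± 0.23. It read -1.76, -1.99 and -1.09 in controls and -2.08, -2.14 and -2.17 with ADP. The groups did not overlap, but control 3 stood far above the other controls, and without it the difference was -0.25.

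Among 13 sensors and transcription factors of the response, 7 were above 0 and the median was 0.01. The slide block gave 0.03, and leaving out each array in turn gave -0.03, without ADP 3, to 0.06, without ADP 2. Again 1 was higher at an unadjusted p under 0.05 and 0 were lower. Ern1, which encodes the sensor IRE1 alpha, read 0.33, 0.31 and 0.22 in controls and 0.38, 0.89 and 0.98 with ADP. All ADP arrays were above the controls, ADP 1 by a small margin. The difference was 0.46 ± 0.17 (log2, SE; limma adjusted p = 0.354), with 0.06 within slide 1 and 0.71 within slide 2. The transcription factor gene Creb3 differed by -0.23 ± 0.11 and Ddit3, which encodes CHOP, by 0.16 ± 0.11.

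Of 10 targets of the PERK and ATF4 arm, 8 were above 0, and the median of 0.22 was the highest of the 6 lists. The slide block gave a median of 0.25, slide 1 alone 0.18 and slide 2 alone 0.33. It was 0.11 without control 3 and 0.12 without ADP 1. At an unadjusted p under 0.05, 3 were higher and 0 were lower. Ddit4, an inhibitor of mTORC1 that other stresses also raise, differed by 0.91 ± 0.32 (log2, SE; limma adjusted p = 0.329), with 0.34 and 1.34 within slides 1 and 2. Control 1 overlapped the ADP arrays, at 2.03 against 1.98 on ADP 1. Sesn2 differed by 0.31 ± 0.13 and Ppp1r15a, which encodes the phosphatase subunit GADD34, by 0.28 ± 0.11. The groups of these last genes did not overlap. Whether this list differed from the 10 chaperone and XBP1 target genes was not tested.

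Of 24 genes of the translocon and ER protein import, 14 were above 0 and the median was 0.03. The slide block gave 0.01, and leaving out each array in turn gave -0.04, without ADP 1, to 0.06, without ADP 2. Without the block none was at an unadjusted p under 0.05 in either direction. Dad1, a subunit of the oligosaccharyltransferase, had the smallest p there, at 0.18 ± 0.10 (log2, SE). The signal peptidase genes Sec11c and Spcs2 differed by 0.20 ± 0.12 and 0.16 ± 0.11. The mean over the Spcs2 probes differed by 0.32. Of 16 genes of ER-to-Golgi transport, 12 were above 0 and the median was 0.12. At an unadjusted p under 0.05, 1 was higher and 0 were lower. Groups did not overlap for 6 with ADP higher and for 1 with ADP lower, against 10.1% and 9.15% of all features. Mcfd2, part of a cargo receptor, differed by 0.29 ± 0.11, and the COPII coat genes Sec23a and Sec23b by 0.23 ± 0.10 and 0.21 ± 0.11. Lman1, the partner of Mcfd2 in that receptor, differed by 0.21 ± 0.12, and it too is named after its values were seen. The slide-blocked limma fit with trended, robust variances called it higher (adjusted p = 0.0447), as it called 9.31% of all features in either direction.

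**Figure D3:**
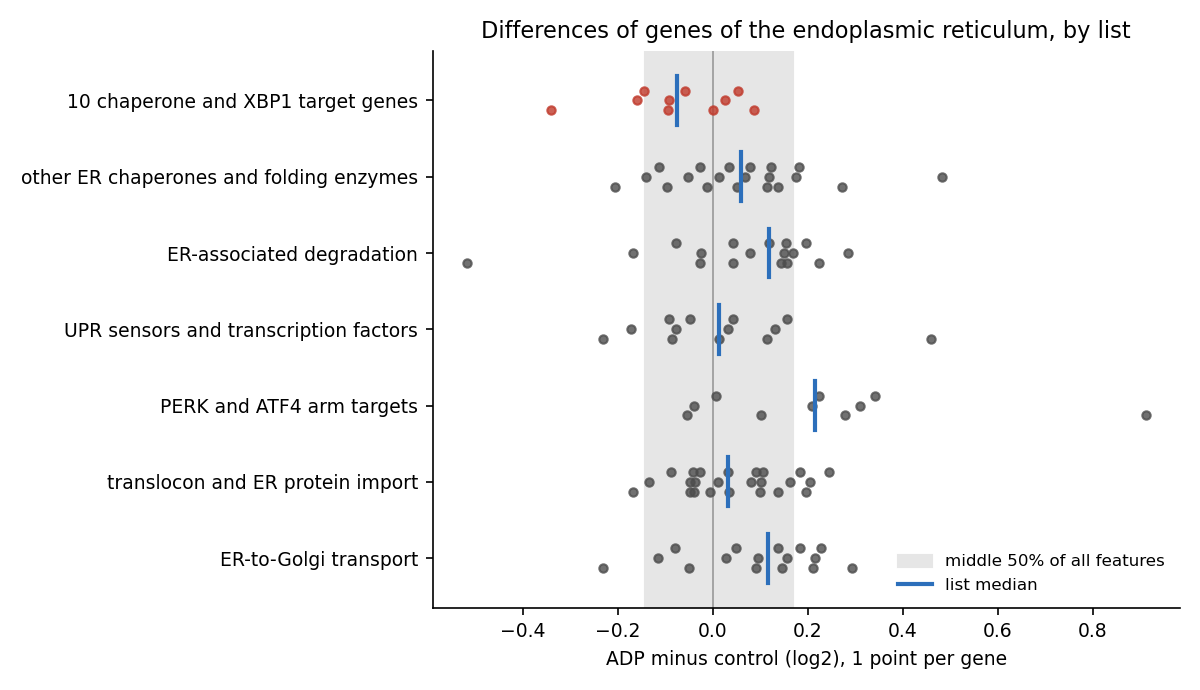
ADP minus control (log2) for each gene of the 10 chaperone and XBP1 target genes (red) and of the 6 pathway lists (grey), with the median of each list as a blue bar and the middle 50% of all 19583 features shaded. The median of the 10 genes, -0.08, lies below 0, and those of the 6 lists lie between 0.01 and 0.22.

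Genes that carry an ERSE upstream were also read together, since 4 of the 10 carry it. Of 35 genes with an ERSE in the RefSeq promoter table, 18 were measured, 9 above and 9 below 0, their median being 0.0078, or -0.05 in the slide-blocked fit. No such gene was at an unadjusted p under 0.05 in limma without a block. With the slide block 1 was higher and 2 were lower at that level: Dnajc3 (0.32), Derl3 (-0.64) and Hnrnpa3 (-0.20), which encodes an RNA-binding protein, and none passed after adjustment. The other pathway genes with an ERSE were Canx at -0.01 ± 0.09 (log2, SE), which encodes the lectin chaperone calnexin, Syvn1 at -0.02 ± 0.10, the ubiquitin ligase of ER-associated degradation, Creld2 at 0.07 ± 0.12 and the oxidase gene Ero1b at 0.03 ± 0.10. Of 6 measured genes with ERSE-II, 3 were above and 3 below 0. At an unadjusted p under 0.05, Herpud1 and Lgalsl were lower, Lgalsl by -0.45 ± 0.14, and Lrif1 was higher, by 0.31 ± 0.11. None of these passed after adjustment (limma, adjusted p = 0.293 to 0.320).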

How the data were processed

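The deposited intensity of each spot (processed signal) came from Agilent's Feature Extraction software, version 10.7.1.1, per the file headers and the submitters' processing notes, under a one-colour protocol with spatial and multiplicative detrending switched on. The 10 genes, the lists and the settings were chosen with earlier results of these data known. Outlier spots were left out, spots of a probe averaged, and log2 signals taken relative to each array's 75th percentile (376 to 456) over non-control probes. Probes well above background on all 3 arrays of a group were kept, with 1 probe per gene, that of the highest mean. Of 55681 probes, 26582 were named through their accession, 2602 by a current symbol, 492 by a synonym, and 26005 kept the file's name (RefSeq, GRCm38.p6). Probe coordinates are the files' own (mm9), and their exon or UTR place was not analysed here.

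Groups were compared with limma 3.58.1 in R 4.3.3, two-sided, over 19583 features with Benjamini-Hochberg adjustment. The fit was also run on simulated data with planted changes of 2-fold or more. That run does not speak for smaller differences, such as those of the 10 genes. Whether equal replicate numbers share a donor is not given in the sources used here, and p-values measure the spread between these samples. A permutation of 3 against 3 arrays cannot go below p = 0.1. The deposited value table holds the same intensity (99.7% to 99.9% of probes within 0.001 log2), unscaled between arrays, with column medians, in replicate order, of 18.7, 20.3 and 22.0 (control) and 20.7, 21.9 and 22.7 (ADP). Its scale and direction are known, and it is not centred. The number of arrays limits the precision. Named were the 10 genes, the 3 genes of each list with the smallest p, and the 5 genes most like the 10 in level. Dnajc3, Erp29, Lman1 and the other genes with an ERSE, an ERSE-II or TGAC followed by GTGG were named after their values were seen. Protein sequences were not used here.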

Additional observations from a re-analysis of the deposited data

How the results depend on the processing

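In all 20 refits no gene of the 10 passed an adjusted p of 0.05 (limma), and Herpud1, Edem1, Pdia6 and Sdf2l1 were below 0 in all. The signs of the others were not stable, and the cause was not tested. Median scaling gave -0.036 for Xbp1 and -0.010 for Calr, and quantile normalization -0.037 for Hsp90b1, -0.089 for Xbp1 and -0.045 for Calr. The unscaled value table, in which the median of all features rose from 0.02 to 0.08, gave 0.0060 for Hspa5. The slide as a block gave -0.012 for Xbp1 and -0.078 for Calr, with trended and robust variances too. The block with quantile normalization gave 0.0096 for Dnajb9, -0.046 for Xbp1 and -0.097 for Calr, and with the value table -0.034 for Xbp1 and -0.10 for Calr. Leaving out each array in turn gave -0.10 to 0.026 for Hspa5, -0.016 to 0.11 for Hsp90b1, -0.043 to 0.19 for Pdia4, -0.27 to 0.055 for Dnajb9, -0.020 to 0.034 for Xbp1 and -0.092 to 0.20 for Calr. Within slides, values that moved by more than the replicate SD were -0.067 for Hsp90b1, 0.35 for Pdia4, -0.24 for Sdf2l1, -0.11 for Edem1 and -0.28 for Calr on slide 2, and 0.25 for Dnajb9, -0.069 for Xbp1 and -0.19 for Edem1 on slide 1.

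The median of the 10 was -0.11 with median scaling, -0.011 in the value table, -0.11 and -0.12 with the slide block on quantile or value-table data, -0.14 within slide 2, and -0.11 to -0.025 with an array left out. At an unadjusted p under 0.05 there were 0 of the 10 in the value table, 2 with the slide block under trended and robust variances or quantile normalization (Herpud1 and Hspa5), and 0 to 1 with an array left out, 0 without control 1, control 3 or ADP 3. Over all features that count was 2421. It was 1554 in the value table, 4674 with the slide block, 4990, 4882 and 4827 with the block under trended and robust variances, quantile normalization and the value table, and 1147 to 2935 with an array left out, lowest without ADP 3 and 1364 without control 1. The block with trended and robust variances called 1823 features after adjustment, the other refits 0.

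With the replicate number as a block, 0 of the 10 passed, the difference of Herpud1 was -0.34, and 2499 features had an unadjusted p under 0.05. Same-numbered arrays correlated in their deviations at 0.42, -0.40 and 0.43, so pairing by number was not shown. Pairs 1 and 3 each share a slide and pair 2 does not, so these correlations cannot tell a shared number from a shared slide.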
